A study of Rattus norvegicus with 56 samples.

Results

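The nuclear genes of the mitochondrial respiratory chain and of ATP synthase were followed in male Wistar rats, in tissue dissected from the medial part of the hypothalamus. The array annotation gave exactly 1 symbol of the Nduf, Sdh, Uqcr, Cox4 to Cox8 or Atp5 families to 84 genes of the 14557 genes measured in this way. The Ndufaf assembly factors were left out, and a gene with several transcript clusters was represented by its brightest one over 56 arrays. A transcript cluster is the set of probes to 1 transcribed region, and its value is a single intensity per array, given here as log2. Of the 84 genes, 68 encode subunits of the complexes or named isoforms and regulators of them (29 for complex I, 4 for complex II, 5 for complex III, 15 for complex IV and 15 for complex V). The other 16 were 10 genes annotated as similar to a subunit gene and 6 pseudogenes, and they were described apart. Clusters annotated to several genes at once were not used, so that Atp5mc2, Cox5a, Cox7a2, Ndufa10, Ndufs5 and Uqcrb were not analysed here. A further cluster of Cox7c was left out for the same reason. Of the 13 subunits encoded by mitochondrial DNA, 0 was represented by a symbol.

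The rats were 3 months old. In VG rats branches of the vagus nerve had been cut on both sides below the diaphragm, and SH rats had the same operation with the nerve left whole. After 30 days of recovery they received i.p. LPS (a bacterial endotoxin, 10 µg) or NaCl, each in 100 µl (VG LPS n = 5, VG NaCl n = 3, SH LPS n = 4, SH NaCl n = 4). Other rats were injected s.c. for 10 days with celecoxib (CEL, an inhibitor of cyclooxygenase-2), SC-560 (SC560, an inhibitor of cyclooxygenase-1), indometacin (INDOM, which inhibits both) or NaCl (scNaCl), and then received the same LPS or NaCl. These gave 5 CEL LPS, 5 CEL NaCl, 5 SC560 LPS, 5 SC560 NaCl, 3 INDOM LPS, 5 INDOM NaCl, 4 scNaCl LPS and 3 scNaCl NaCl arrays, and 5 CNT rats underwent no procedure. The tissue was dissected 120 min after the i.p. injection. No source used here gives the s.c. drug doses. The labels give each array as a separate sample and name no pooling, so that p-values measure the spread between these samples.

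The respiratory chain hands electrons from NADH (complex I) or succinate (complex II) over ubiquinone, complex III and cytochrome c to oxygen at complex IV. The proton gradient built on the way drives ATP synthase, complex V, which makes most of the ATP that neurons spend on ion pumping and transmitter recycling. Most subunits are encoded in the nucleus, and several complex IV subunits exist as isoforms, 1 common to most tissues and others known from muscle or testis. The nuclear genes are known targets of NRF1, of GABPA (an ETS family factor also called NRF2) and of YY1.

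Promoter sequence was available for 63 of the 68 subunit genes and 6 of the 16 other genes in a RefSeq table of 27457 genes (build GRCr8, 250 bases before to 50 after the first listed start of each gene). The GABPA letters CCGGAAG, searched on both strands, were found in 17 of the 63 subunit promoters (27.0%), against 9.22% of all promoters. The YY1 letters AAGATGGCG were found in 10 (15.9%), against 1.93% of all. The NRF1 letters, taken as GCGCA, any base and GCGC, were found in 13 (20.6%), against 4.71% of all. The promoters of all genes were not matched to those of the subunit genes for base content or expression. In the windows shown these 3 motifs do not overlap each other. In the 6 promoters of the similar genes and pseudogenes none of the 3 motifs was found. TATAAA, the TATA box, was found in 7 of the 63 subunit promoters (11.1%), against 14.3% of all. The windows of 5 subunit genes, from 170 bases before to 30 after the start, are shown because these genes had small unadjusted p-values or groups without overlap in the vagotomy comparisons below. Capitals mark the matches (CTTCCGG is CCGGAAG on the other strand), and each sequence is written 5′ to 3′ along the gene. The positions are chr1:213833594-213833793, minus strand for Cox8a, chr1:255922018-255922217, minus strand for Atp5mk, chr5:158547764-158547963, plus strand for Sdhb, chr8:118468053-118468252, plus strand for Uqcrc1 and chr1:210573669-210573868, minus strand for Ndufs8 (GRCr8).
Cox8a: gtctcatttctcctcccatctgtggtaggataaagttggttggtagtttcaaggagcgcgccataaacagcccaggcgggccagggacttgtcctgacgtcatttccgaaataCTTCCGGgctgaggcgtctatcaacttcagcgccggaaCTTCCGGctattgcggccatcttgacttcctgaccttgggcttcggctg
Atp5mk: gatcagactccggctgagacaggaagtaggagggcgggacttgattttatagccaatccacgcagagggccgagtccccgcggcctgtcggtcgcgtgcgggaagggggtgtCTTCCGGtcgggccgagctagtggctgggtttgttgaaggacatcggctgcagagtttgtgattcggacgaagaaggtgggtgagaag
Sdhb: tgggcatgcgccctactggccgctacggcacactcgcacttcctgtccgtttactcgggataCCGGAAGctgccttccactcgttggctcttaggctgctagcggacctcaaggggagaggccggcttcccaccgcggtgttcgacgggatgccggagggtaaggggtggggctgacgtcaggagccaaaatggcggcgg
Uqcrc1: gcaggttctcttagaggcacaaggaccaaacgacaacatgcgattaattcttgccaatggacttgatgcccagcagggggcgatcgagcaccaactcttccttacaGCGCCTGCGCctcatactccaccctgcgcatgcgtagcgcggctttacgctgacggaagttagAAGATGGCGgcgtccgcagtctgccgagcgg
Ndufs8: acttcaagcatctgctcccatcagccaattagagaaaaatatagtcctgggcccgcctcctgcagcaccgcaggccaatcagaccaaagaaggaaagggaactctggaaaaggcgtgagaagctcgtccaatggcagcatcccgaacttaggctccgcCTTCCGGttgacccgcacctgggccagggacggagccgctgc
Cox8a carried 2 GABPA matches, Atp5mk, Sdhb and Ndufs8 carried 1 each, and Uqcrc1 carried a match to the NRF1 letters and a YY1 match at its start. A match is a stretch of letters and shows no binding.

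The level of the 68 subunit genes was followed across all 56 arrays. The level of an array was taken as the median, over the 68 genes, of the deviation of each gene from its own mean. It lay between −0.15 in VG LPS array 46 and 0.13 in INDOM LPS array 50, with an SD within groups of 0.06 on the log2 scale. The same SD was 0.033 for the level of all 14557 genes. It was 0.085 for the 44 cytosolic and 0.111 for the 61 mitochondrial ribosomal protein genes. The median SD of single genes within groups was 0.19 for the 64 subunit genes above the median intensity of all clusters, against 0.25 for the 9055 genes above it. The 64 genes were also brighter, with a median of the gene means of 8.44 against 5.94. The SDs were not compared at matched intensity. Sdhb, the iron-sulfur subunit of complex II, had the smallest SD within groups (0.11, a range of 1.42-fold over all arrays). Cox7c, a small complex IV subunit, had the largest of the 64 (0.52) and spanned 7.26 to 9.54, followed by Atp5f1c, the gamma subunit of the ATP synthase stalk (0.51, from 3.09 to 5.14). The Atp5f1c cluster had a mean of 4.18, close to the median intensity of 4.08. The ATP synthase subunit genes Atp5f1a and Atp5f1b had means of 9.76 and 9.81. How well this cluster reads the Atp5f1c transcript was not tested. By complex, the median SD within groups was 0.20 for complex I, 0.14 for complex II, 0.15 for complex III, 0.25 for complex IV and 0.20 for complex V. Complex IV holds the isoforms known from muscle or testis, of which Cox7b2, Cox8b and Cox8c had means of 2.62, 3.20 and 3.52, below the median intensity. Cox6b1 also lay below it, with a mean of 2.61, where the complex IV genes Cox4i1 and Cox6a1 had means of 9.80 and 10.23. How well the Cox6b1 cluster reads its transcript was not tested either.

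**Figure D1:**
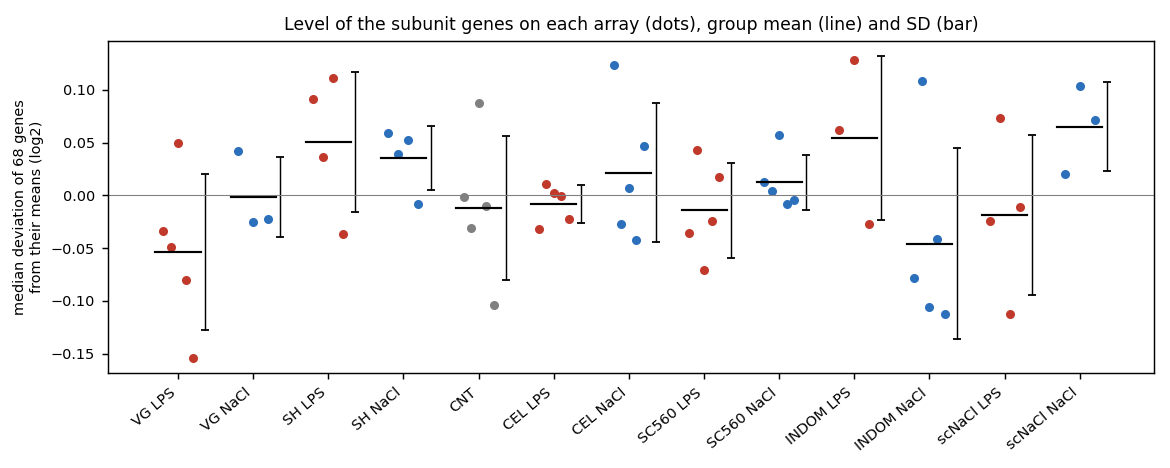
Median deviation (log2) of the 68 subunit genes from their own means on each array (dots) in the 13 groups, with the group mean (line) and SD (bar). LPS groups are red, NaCl groups blue and CNT grey, and all arrays lie between −0.15 and 0.13.

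The array medians over all clusters lay between 4.04 and 4.24 on the log2 scale, and array pairs correlated between 0.932 and 0.976. Of the 12 measured hypothalamus markers, Oxt (oxytocin) and Avp (vasopressin) were the brightest, with medians over the arrays of 10.05 and 9.75. Crh (4.26) and Sim1 (4.05) lay close to the median intensity of all clusters, 4.08. The other markers had medians from 4.96 (Agrp) to 8.34 (Sst). VG LPS array 46 stood apart: Oxt was 4.95 and Avp 4.82 in it, against at least 8.82 and 8.65 in all other arrays. Its 12 measured hypothalamus markers had a median deviation of −1.91, against −0.09 to 0.51 in the other VG LPS arrays. The sequence of groups in the labels starts again at array 41. With the 13 groups as terms, 0 of 84 genes differed between arrays 41 to 56 and arrays 1 to 40 at an adjusted p under 0.05 in limma, where 1.43% of all clusters did. Unadjusted p-values under 0.05 were found for 14 of 84 (16.7%), against 16% of all clusters. Without array 46 there were 0 of 84 at an adjusted p under 0.05 and 10 of 84 (11.9%) at an unadjusted one, against 0.207% and 11.4% of all clusters. This dissection is bulk tissue, in which fewer cells of a type and less RNA per cell cannot be told apart.

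The first question was whether LPS, given 120 min earlier, was followed by a different level of these genes. In the fit that pooled the 6 pretreatments (26 LPS and 25 NaCl arrays), 0 of 84 genes differed at an adjusted p under 0.05 in limma, where 0.395% of all clusters did. An unadjusted p under 0.05 was also found for 0 of 84, where 4.9% of all clusters passed. The arrays did register the injection: Ptgs2, the inducible cyclooxygenase, averaged 5.95 ± 0.48 in LPS arrays and 4.79 ± 0.50 in NaCl arrays (SD), a difference of 1.15 (adjusted p = 5.73e-07). Nfkbia, the inhibitor of NF-kB that is induced by it, averaged 7.24 ± 0.64 in LPS arrays and 5.93 ± 0.52 in NaCl arrays (SD, adjusted p = 1.92e-06). The subunit genes differed by −0.16 to 0.23 with a median of −0.02, against −0.01 over all 14557 genes. Lower means after LPS were found for 44 of the 68, against 7882 of the 14557. Without array 46 the median was again −0.02, with 0 of 84 called and 1 of 68 at an unadjusted p under 0.05. The 95% interval of the difference lay within 1.2-fold in either direction for 61 of the 68 subunit genes and within 1.5-fold for all 68.

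The medians of the complexes lay close together. The median difference was −0.004 for the 29 complex I genes, −0.04 for the 4 of complex II, −0.02 for the 5 of complex III, −0.02 for the 15 of complex IV and −0.02 for the 15 of complex V. Ndufv1, the flavoprotein that takes electrons from NADH, lay between 7.77 and 8.25 (median 8.11) in LPS arrays and between 7.85 and 8.35 (median 8.06) in NaCl arrays. Sdha, the flavoprotein of complex II, lay between 8.82 and 9.23 (median 9.05) in LPS arrays and between 8.80 and 9.35 (median 9.04) in NaCl arrays. The ranges of both genes overlapped almost completely. Uqcrc1, a core subunit of complex III, had a median of 8.45 in LPS arrays and of 8.45 in NaCl arrays. Cox4i1, the common isoform of the complex IV subunit through which ATP slows the enzyme, lay between 9.44 and 10.00 (median 9.80) in LPS arrays and between 9.53 and 10.04 (median 9.87) in NaCl arrays. Atp5f1b, the catalytic beta subunit of ATP synthase, had a median of 9.81 in both, with a difference of −0.02 and a 95% interval from −0.13 to 0.09. Atp5if1, the peptide that stops ATP synthase from running backwards, differed by −0.01 (95% interval −0.13 to 0.12).

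Among the isoforms the differences were also small. Cox4i2, the lung and hypoxia isoform of Cox4, differed by −0.01 (95% interval −0.16 to 0.14), and Ndufa4l2, a hypoxia-induced relative of Ndufa4, by −0.05 (−0.27 to 0.16). Cox6a2, the heart and muscle isoform, differed by 0.01 (−0.14 to 0.16). The 2 smallest p-values belonged to Cox7b2, known from testis, and Cox7a2l, a factor that joins complexes III and IV. Cox7b2 lay between 2.14 and 3.25 (median 2.45) in LPS arrays and between 2.25 and 3.40 (median 2.60) in NaCl arrays, a difference of −0.16 ± 0.09 (standard error, adjusted p = 1). Cox7a2l lay between 7.87 and 8.76 (median 8.42) in LPS arrays and between 7.86 and 8.55 (median 8.30) in NaCl arrays, a difference of 0.10 ± 0.06 (adjusted p = 1). The interval was widest for Atp5f1c, whose cluster lay close to the median intensity and whose difference was 0.23 ± 0.14 (95% interval −0.06 to 0.51).

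**Figure D2:**
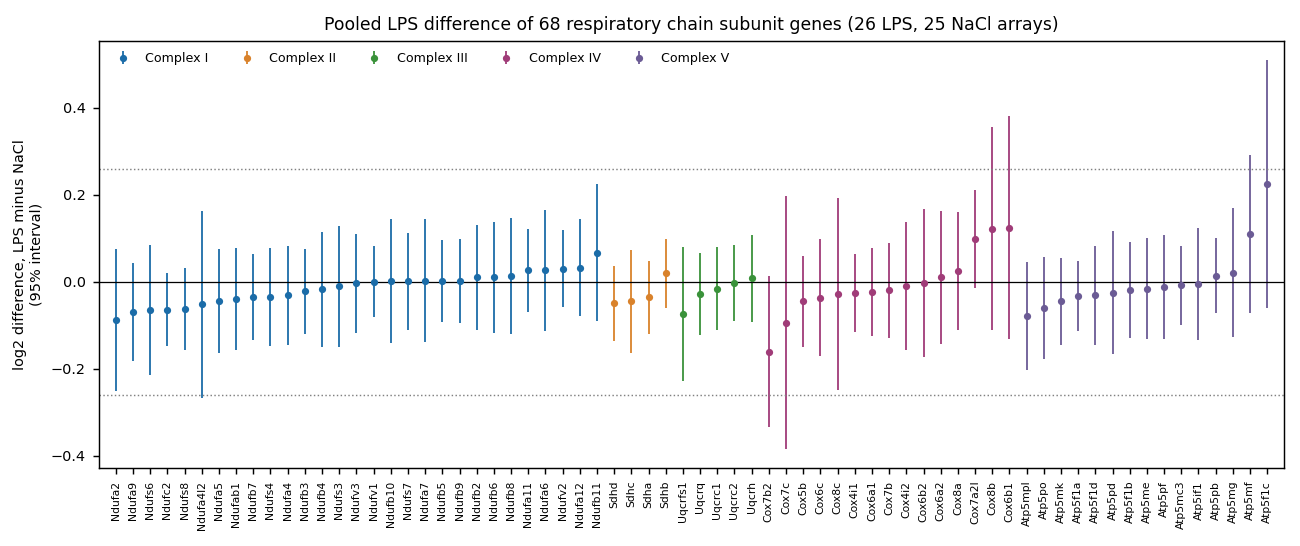
Difference between LPS and NaCl arrays (log2, dot) with its 95% interval (line) for the 68 subunit genes, grouped by complex and ordered by size. Dotted lines mark a 1.2-fold difference either way, and 61 of the 68 intervals lie between them.

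Genes that assemble, feed or regulate the chain had differences of the same order. Of 47 listed assembly factors 35 were measured, and 0 passed the adjustment in the pooled fit (median difference −0.02). Ndufaf4, which helps to build complex I, had the smallest p among them, with a difference of −0.29 ± 0.11 (standard error, adjusted p = 0.696). Of 20 listed regulators of these genes and of mitochondrial DNA 15 were measured, with a median difference of −0.01 and 0 called. Esrra, a nuclear receptor that drives mitochondrial genes, differed by −0.13 ± 0.08 and Tfam, which packs and transcribes mitochondrial DNA, by −0.08 ± 0.06 (adjusted p = 1 for both). Of 21 electron carrier and citric acid cycle genes 15 were measured, with 13 of 15 lower, a median difference of −0.03 and 0 called. The 8 measured genes of uncoupling and ATP export all had differences below 0, the farthest being Vdac1, a channel of the outer membrane (−0.08 ± 0.06, adjusted p = 1), with 0 called. The 61 mitochondrial ribosomal protein genes had a median difference of −0.01, and 0 was called. Of the cell type lists, only that for endothelium had called genes, with 5 of its 6 measured genes lower after LPS and 2 of them called (0.395% of all clusters were called in either direction). Cldn5, a tight junction protein of the blood-brain barrier, was lower after LPS by −0.92 ± 0.20 (adjusted p = 0.0106), and Tek, an angiopoietin receptor, by −0.44 ± 0.11 (adjusted p = 0.0389). The 1 gene of this list with a higher mean was Slc2a1, the glucose transporter of the barrier, with a difference of 0.29 ± 0.09 (adjusted p = 0.231).

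Taken by pretreatment, the LPS comparisons had medians of 0.01 in SH, −0.05 in VG, −0.08 in scNaCl, −0.03 in CEL, −0.02 in SC560 and 0.08 in INDOM rats over the 68 subunit genes (−0.03 in VG rats without array 46). The 95% interval lay within 1.5-fold for 50 to 61 of the 68 genes, and within 2-fold for 64 to 68, so that these comparisons bound a single gene less tightly than the pooled one. In none of these 6 comparisons was a member called at an adjusted p under 0.05 in limma, where the share of all clusters called was 0% in SH, scNaCl, CEL and SC560, 0.00273% in VG and 0.00818% in INDOM rats. The count of subunit genes with an unadjusted p under 0.05 was 0 in SH (3.42% of all clusters), 0 in VG (7.02%), 1 in scNaCl (4.05%), 1 in CEL (5.57%), 0 in SC560 (3.62%) and 2 in INDOM rats (5.42%). In scNaCl rats the gene was Ndufa4, described below, and in CEL rats it was Atp5f1b, with 9.52, 9.55, 9.75, 9.53 and 9.68 in CEL LPS arrays, against 9.94, 10.04, 9.99, 9.66 and 9.73 in CEL NaCl arrays. The 5 LPS values lay low and overlapped with the 2 lowest NaCl values, and the difference was −0.26 ± 0.11 (standard error, adjusted p = 0.874). In INDOM rats the genes were Cox6b1 and Ndufb2. Cox6b1, which joins the monomers of complex IV, had 3.20, 2.71 and 3.69 in INDOM LPS arrays, against 2.40, 2.70, 2.30, 2.22 and 2.32 in INDOM NaCl arrays. The groups did not overlap (1.07% of all clusters were higher without overlap), at a level below the median intensity, and the difference of 0.81 ± 0.30 had an adjusted p of 0.915. In INDOM rats 51 of the 68 subunit genes had higher means after LPS, against 53.3% of all genes and 59.3% of the 9055 genes above the median intensity. So did 50 of 61 mitochondrial and 32 of 44 cytosolic ribosomal protein genes. Higher means were also found for 8 of 10 microglia, 4 of 4 astrocyte, 5 of 6 oligodendrocyte and 4 of 6 neuron markers. The oligodendrocyte list (6 of 9 genes measured) lay from −0.16 to 0.39 in INDOM LPS arrays and from −0.53 to 0.20 in INDOM NaCl arrays. Most genes were lower in the lists of mural cells (2 of 6 higher), endothelium (2 of 6), ependyma and tanycytes (1 of 3) and meninges (1 of 7). The 1 measured red blood cell marker was higher by 0.75 (adjusted p = 0.915 in limma). Their part in the result was not tested. Ndufb2, an accessory subunit of the membrane arm of complex I, had 7.86, 8.11 and 7.78 in INDOM LPS arrays, against 7.23, 7.85, 7.38, 7.78 and 7.55 in INDOM NaCl arrays, with an overlap of 1 array and a difference of 0.36 ± 0.14 (adjusted p = 0.915).

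The LPS effect was then set against that in scNaCl rats, which all 3 drug groups share. For INDOM 59 of 68 subunit genes had the more positive effect, with a median of 0.15. So had 54.1% of all genes and 60.7% of the 9055 genes above the median intensity. An unadjusted p under 0.05 was found for 0 of 68 (4.42% of all clusters). For CEL the median was 0.08, with 1 gene positive and 2 negative at this p, where 2.25% and 2.03% of all clusters were. For SC560 it was 0.06, with 1 gene positive, where 1.74% of all clusters were. No member passed the adjustment in these 3 tests (0% of all clusters).

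**Figure D3:**
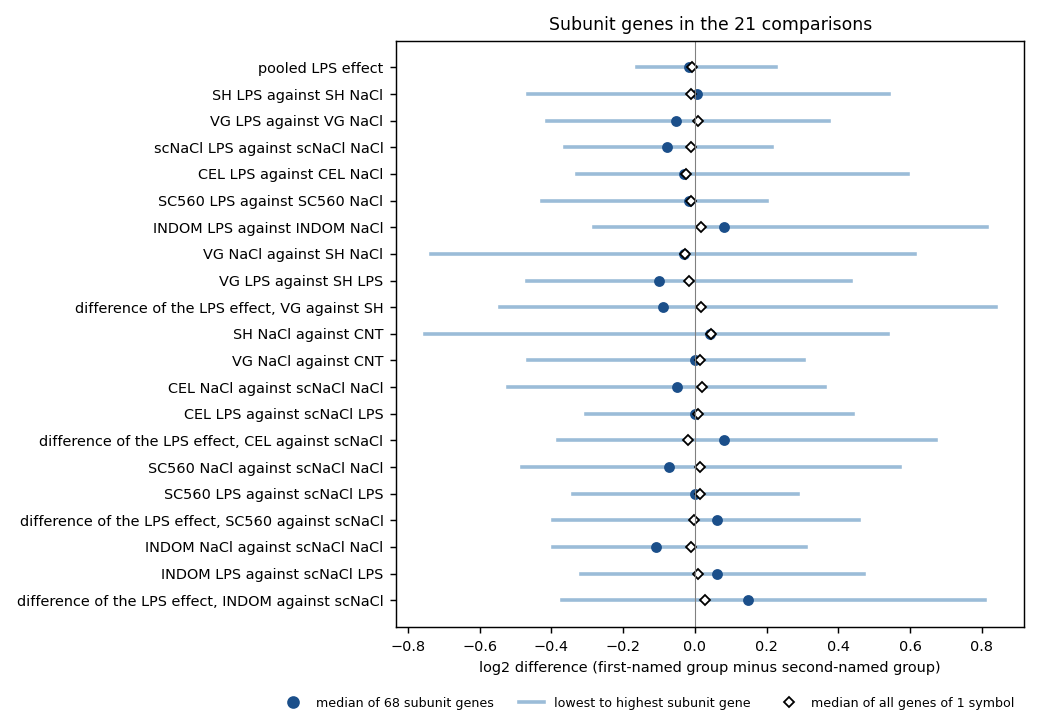
Median difference (log2) of the 68 subunit genes (filled dot), their lowest to highest difference (line) and the median over 14557 genes (diamond) in the 21 comparisons, each written with the group on top of the difference first. The medians of the subunit genes lie between −0.11 and 0.15.

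The second question was whether vagotomy, without LPS, was followed by a different level. Between VG NaCl (n = 3) and SH NaCl (n = 4) 0 of 84 genes differed at an adjusted p under 0.05 in limma, as for all clusters (0%). With an unadjusted p under 0.05, 8 of the 68 subunit genes were lower in VG NaCl and 0 higher, where 4.05% of all clusters were lower and 3.92% higher. The 8 were Cox8a, Ndufb2, Atp5mk, Atp5mf, Sdhb, Cox8c, Cox4i1 and Ndufb8. The groups did not overlap for 10 of the 68 (14.7%) with VG NaCl lower, where this held for 5.18% of all clusters, and for 1 (1.47%) with VG NaCl higher, where this held for 4.08%. Clusters above the median intensity were lower more often than others, with 6.77% of them lower at an unadjusted p under 0.05, and 7 of the 64 bright subunit genes. Over all 68 subunit genes the median difference was −0.03, as over the 14557 genes (−0.03). The 9055 genes above the median intensity, where 64 of the 68 also lay, had a median of −0.07.

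Cox8a, the common isoform of the smallest complex IV subunit, whose promoter is shown above, had the smallest p. It measured 8.53, 8.71 and 8.69 in VG NaCl arrays, against 8.98, 8.83, 9.27 and 9.50 in SH NaCl arrays. All VG NaCl values lay below all SH NaCl values, with a difference of −0.50 ± 0.16 (standard error, adjusted p = 0.430). CNT rats had 8.89, 8.74, 8.84, 8.75 and 8.56, which overlapped with both groups. Ndufb2 measured 7.47, 7.72 and 7.56 in VG NaCl arrays, against 7.90, 7.91, 8.04 and 8.17 in SH NaCl arrays, and 7.81, 7.59, 7.70, 7.44 and 7.32 in CNT arrays. Its difference between VG NaCl and SH NaCl was −0.42 ± 0.17 (adjusted p = 0.538). Atp5mk, a small membrane subunit of ATP synthase, measured 10.25, 10.37 and 10.33 in VG NaCl arrays, against 10.51, 10.51, 10.74 and 10.72 in SH NaCl arrays, and 10.09, 10.28, 10.36, 10.37 and 10.27 in CNT arrays. For these 3 genes the SH NaCl arrays were the high ones, and the VG NaCl arrays lay among the CNT arrays or close to them.

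Sdhb and Cox4i1 also lay lower in VG NaCl arrays. Sdhb measured 8.24, 8.06 and 8.08 in VG NaCl arrays, against 8.37, 8.34, 8.38 and 8.49 in SH NaCl arrays, a difference of −0.27 ± 0.12 (standard error, adjusted p = 0.589). Cox4i1 measured 9.53, 9.83 and 9.65 in VG NaCl arrays, against 9.90, 9.97, 9.91 and 9.99 in SH NaCl arrays, a difference of −0.27 ± 0.12 (adjusted p = 0.600). In both genes the groups did not overlap. Of the 4 complex II genes 3 had a lower and 1 a higher mean in VG NaCl arrays. Atp5pd, a stator subunit of ATP synthase, was the 1 subunit gene higher in VG NaCl without overlap, with 7.71, 7.94 and 7.92 in VG NaCl arrays, against 7.64, 7.60, 7.61 and 7.52 in SH NaCl arrays.

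The comparison of SH NaCl with CNT shares the SH NaCl arrays with the one above. Here 0 of 84 genes passed the adjustment (0% of all clusters). In the unadjusted test 6 subunit genes were higher in SH NaCl with a p under 0.05 (Atp5mk, Ndufs7, Ndufb2, Cox8a, Atp5f1d and Ndufs4), where 2.57% of all clusters were higher, and 1 was lower (Atp5f1c), where 2.36% were lower. Ndufs7, an iron-sulfur subunit of complex I, measured 8.23, 7.85, 8.05 and 8.15 in SH NaCl arrays, against 7.28, 7.73, 7.87, 7.68 and 7.09 in CNT arrays, a difference of 0.54 ± 0.18 (standard error, adjusted p = 0.982). Atp5f1c measured 4.43, 3.62, 3.30 and 3.65 in SH NaCl arrays, against 3.93, 4.51, 4.66, 5.09 and 4.33 in CNT arrays, a difference of −0.75 ± 0.28 (adjusted p = 0.982). These values lie around the median intensity of all clusters. For Ndufs7 only the lowest SH NaCl and the highest CNT array crossed, and for Atp5f1c 1 SH NaCl array lay above 2 CNT arrays. Without SH NaCl array 45 the count of 6 was 3, and without CNT array 41 it was 4. Of the 9055 genes above the median intensity 409 were higher and 81 lower at this p. All 10 microglia markers, all 6 endothelial markers and 49 of the 61 mitochondrial ribosomal protein genes had higher means in SH NaCl arrays, and all 7 meningeal markers lower ones. Their part in the result was not tested. Against CNT, VG NaCl had 0 members called (0% of all clusters), with 1 subunit gene higher (Uqcrq) and 1 lower (Ndufb8) at an unadjusted p under 0.05, where 3.39% of all clusters were higher and 2.69% lower. The median difference was 0.001.

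The count of 8 lower genes in VG NaCl against SH NaCl changed when single arrays were left out, which also leaves the test fewer arrays. The median difference of the 84 members, −0.026 with all arrays, ran from −0.074 without VG NaCl array 13 to −0.021 without VG NaCl array 14. Without SH NaCl array 45 the count was 1, without SH NaCl array 44 it was 2, without VG NaCl array 14 it was 5, and without VG NaCl array 15 it was 2, with 2 higher. A fit on the 7 arrays of these groups alone gave 4. With the array set as a block it was 5 lower and 1 higher, and 3 of the 4 SH NaCl arrays but 0 of the 3 VG NaCl arrays are numbered 41 or above. Markers of other cells differed between the same arrays. The 6 measured endothelial markers of 8 had a median deviation from −0.23 to 0.02 in VG NaCl arrays and from 0.06 to 0.48 in SH NaCl arrays, and the 10 microglia markers one from −0.22 to 0.03 in VG NaCl arrays and from −0.04 to 0.44 in SH NaCl arrays. The 44 cytosolic ribosomal protein genes lay from −0.13 to 0.03 in VG NaCl arrays and from −0.03 to 0.18 in SH NaCl arrays. Their part in the result was not tested.

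**Figure D4:**
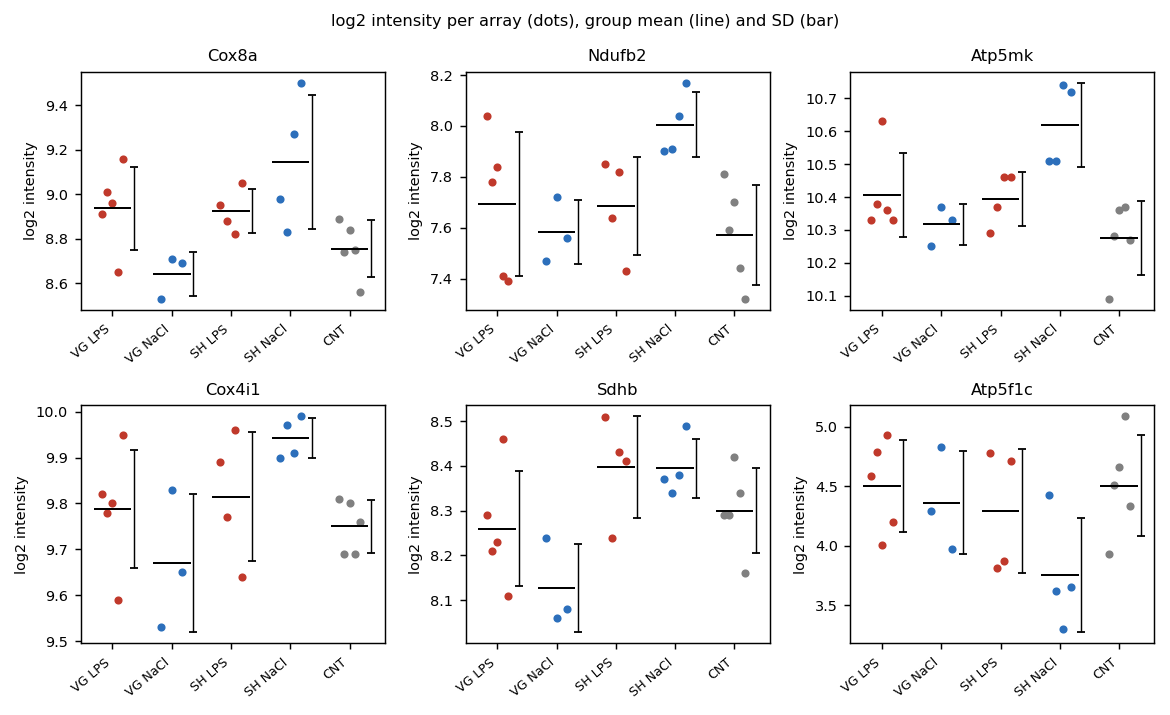
log2 intensity of Cox8a, Ndufb2, Atp5mk, Cox4i1, Sdhb and Atp5f1c on each array of the VG, SH and CNT groups (dots), with group mean (line) and SD (bar). LPS groups are red, NaCl groups blue and CNT grey. All VG NaCl arrays lie below all SH NaCl arrays for the first 5 genes, as with Cox8a at 8.53 to 8.71 in VG NaCl and 8.83 to 9.50 in SH NaCl arrays.

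After LPS, the vagotomized rats had the lower median. Between VG LPS (n = 5) and SH LPS (n = 4) the median difference of the 68 subunit genes was −0.10, against −0.02 over all 14557 genes. Lower means were found for 52 of the 68 and 7803 of the 14557. The 9055 genes above the median intensity had a median of −0.03, with 5245 of them lower. None of the 84 genes passed the adjustment in limma (0% of all clusters). At an unadjusted p under 0.05 there were 4 lower subunit genes (Ndufs8, Atp5pf, Atp5mpl and Uqcrh), where 1.7% of all clusters were lower, and 1 was higher (Cox6b2), where 2.44% were higher. Ndufs8, an iron-sulfur subunit of complex I, measured 7.46, 7.53, 7.44, 7.05 and 7.00 in VG LPS arrays, against 7.67, 7.61, 7.61 and 7.63 in SH LPS arrays, a difference of −0.33 ± 0.13 (standard error, adjusted p = 1). All VG LPS values lay below the SH LPS values, which were close together (0.458% of all clusters were lower without overlap). Atp5pf, a stator subunit of ATP synthase, measured 8.24, 7.92, 8.53, 8.20 and 8.54 in VG LPS arrays, against 8.53, 8.67, 8.81 and 8.64 in SH LPS arrays, with an overlap of 1 value. By array, the level of the 68 genes was −0.03, −0.05, 0.05, −0.08 and −0.15 in VG LPS arrays and between −0.04 and 0.11 in SH LPS arrays. Without array 46, whose tissue markers stand apart, the median difference was −0.07, and the counts were again 4 lower and 1 higher. The count of 4 was 1 without SH LPS array 7 or VG LPS array 12, 9 without VG LPS array 11 and 1 in a fit on the 9 arrays of these groups. Markers of other cells and tissues differed between the same arrays. The 7 measured meningeal markers of 8 all had higher means in VG LPS arrays, with a median deviation from −0.16 to 0.48 in VG LPS arrays and from −0.37 to −0.11 in SH LPS arrays. The 3 measured markers of ependyma and tanycytes lay from −0.06 to 0.42 in VG LPS arrays and from −0.18 to −0.11 in SH LPS arrays, and the 5 of skeletal muscle from −0.25 to 0.15 in VG LPS arrays and from −0.38 to −0.09 in SH LPS arrays. Their part in the result was not tested.

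Cox8b, the muscle isoform of the complex IV subunit, had 3.20, 3.11, 3.02, 3.46 and 5.17 in VG LPS arrays, against 2.70, 3.51, 3.02 and 3.41 in SH LPS arrays. Its 1 high value came from array 46. When the effect of LPS in VG rats was set against that in SH rats, Cox8a had the smallest p. It differed by 0.29 ± 0.15 after LPS in VG rats and by −0.22 ± 0.15 in SH rats, giving a difference of effects of 0.51 ± 0.21 (standard error, adjusted p = 0.923). For Uqcrc1 the values were 8.41, 8.30, 8.49, 8.14 and 8.28 in VG LPS arrays, against 8.77, 8.49 and 8.49 in VG NaCl arrays, and 8.56, 8.67, 8.67 and 8.37 in SH LPS arrays, against 8.66, 8.28, 8.28 and 8.37 in SH NaCl arrays. The 2 SH groups overlapped and the VG groups met at 8.49, and the difference of effects was −0.43 ± 0.19 (adjusted p = 0.923). These were the only subunit genes of this test with an unadjusted p under 0.05, 1 in each direction, where 2.78% of all clusters were positive and 2.6% negative, and without array 46 there were 2 positive and 1 negative. No member passed the adjustment (0.00273% of all clusters).

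The third question was whether the cyclooxygenase inhibitors were followed by a different level without LPS. CEL NaCl, SC560 NaCl and INDOM NaCl (n = 5 each) were all set against the same 3 scNaCl NaCl arrays, so that a high value in those arrays enters all 3 comparisons. No member was called in any of them (0% of all clusters). The median difference of the subunit genes was −0.05 for CEL, −0.07 for SC560 and −0.11 for INDOM, against 0.02, 0.01 and −0.01 over all genes. Unadjusted p-values under 0.05 were found for 5 lower and 0 higher for CEL (2.32% of all clusters lower, 2.3% higher), 2 lower and 2 higher for SC560 (1.85% lower, 2.11% higher) and 5 lower and 0 higher for INDOM (2.71% lower, 2.8% higher).

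Ndufa4, long counted with complex I and now placed at complex IV, was grouped by its symbol with complex I here, as was Ndufa4l2. It was lower without overlap in all 3 comparisons, where 1.62% of all clusters were for CEL, 2.01% for SC560 and 1.68% for INDOM. It measured 10.52, 10.50, 10.25, 10.17 and 10.25 in CEL NaCl arrays, 10.46, 10.41, 10.35, 10.49 and 10.33 in SC560 NaCl arrays and 10.33, 10.59, 10.52, 10.07 and 10.34 in INDOM NaCl arrays, against 10.64, 10.82 and 10.61 in scNaCl NaCl arrays. The scNaCl LPS arrays, at 10.46, 10.32, 10.20 and 10.34, lay below the same 3 arrays too (2.3% of all clusters). The differences were −0.35 ± 0.13 for CEL, −0.28 ± 0.13 for SC560 and −0.32 ± 0.13 for INDOM (standard errors), with adjusted p of 1, 1 and 0.863. Cox7b, a small complex IV subunit, measured 9.47, 9.68, 9.19, 9.37 and 9.28 in INDOM NaCl arrays, against 9.68, 9.85 and 9.86 in scNaCl NaCl arrays, a difference of −0.40 ± 0.14 (adjusted p = 0.863). Ndufab1, the mitochondrial acyl carrier protein that is also part of complex I, measured 7.96, 8.29, 8.47, 8.13 and 8.01 in INDOM NaCl arrays, against 8.45, 8.53 and 8.68 in scNaCl NaCl arrays, a difference of −0.38 ± 0.14 (adjusted p = 0.863). For both genes only the highest INDOM NaCl array reached the scNaCl NaCl range. Cox4i2 went the other way for SC560, with 5.10, 5.11, 4.87, 5.22 and 5.33 in SC560 NaCl arrays, against 4.59, 4.28 and 4.83 in scNaCl NaCl arrays. Its difference was 0.56 ± 0.22 without overlap (adjusted p = 1), where 1.91% of all clusters were higher without overlap. Cox6a2 had 5.08, 5.52, 5.90, 5.29 and 5.21 in SC560 NaCl arrays, against 4.59, 5.29 and 4.60 in scNaCl NaCl arrays, with overlap. For CEL, 2 of the 68 subunit genes were higher without overlap (1.97% of all clusters) and 3 lower (1.62%). The count of 5 for CEL was 1 without scNaCl NaCl array 20 and 2 without scNaCl NaCl array 48 or CEL NaCl array 27. The count of 5 for INDOM was 3 without scNaCl NaCl array 20, INDOM NaCl array 52 or INDOM NaCl array 56, and 8 without INDOM NaCl array 53. For INDOM the median of the subunit genes, −0.11, was −0.03 when the arrays were quantile normalized once more, and the 9055 genes above the median intensity had a median of −0.05. The 4 measured pars tuberalis and pituitary markers of 5 lay from −2.81 to −0.64 in CEL NaCl arrays, from 0.57 to 1.13 in SC560 NaCl arrays and from 0.38 to 1.19 in INDOM NaCl arrays, against −2.37 to −0.49 in scNaCl NaCl arrays. All 12 measured hypothalamus markers and all 7 meningeal markers had higher means in SC560 NaCl than in scNaCl NaCl arrays. For CEL, 10 of the 44 cytosolic ribosomal protein genes were lower at an unadjusted p under 0.05. The part of these differences in the results was not tested. All INDOM arrays are numbered 41 or above.

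**Figure D5:**
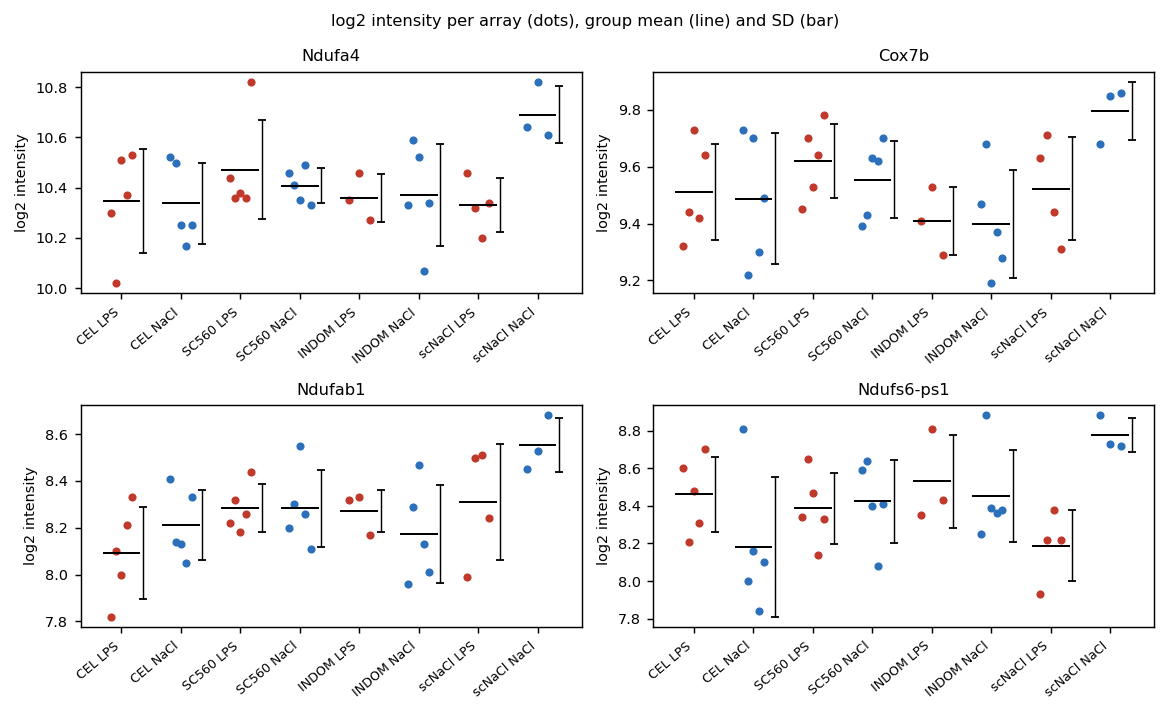
log2 intensity of Ndufa4, Cox7b, Ndufab1 and Ndufs6-ps1 on each array of the 8 groups with s.c. injections (dots), with group mean (line) and SD (bar). LPS groups are red and NaCl groups blue. The 3 scNaCl NaCl arrays are high for Ndufa4 (10.61 to 10.82), above all arrays of CEL NaCl, SC560 NaCl, INDOM NaCl and scNaCl LPS.

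After LPS, the drug groups and scNaCl LPS (n = 4) had median differences of 0 for CEL, 0 for SC560 and 0.06 for INDOM. No member was called, where 0% of all clusters were called for CEL and SC560 and 0.00818% for INDOM. In the unadjusted test with p under 0.05, 1 gene was lower for CEL (2.1% of all clusters), 1 higher for SC560 (1.85%) and 1 each way for INDOM (2.63% higher, 2.36% lower). The gene for CEL was Ndufs7, with 7.57, 7.61, 7.41, 7.43 and 7.38 in CEL LPS arrays, against 7.71, 7.76, 7.78 and 7.88 in scNaCl LPS arrays, a difference of −0.30 ± 0.12 without overlap (standard error, adjusted p = 1), where 0.63% of all clusters were lower without overlap. Cox5b, a complex IV subunit of the matrix side, was the gene for SC560, with 9.34, 9.11, 9.15, 9.11 and 9.31 in SC560 LPS arrays, against 8.94, 9.00, 8.54 and 9.19 in scNaCl LPS arrays. The genes for INDOM were Uqcrq, a small complex III subunit, with 8.15, 8.06 and 8.43 in INDOM LPS arrays, against 8.55, 8.54, 8.61 and 8.41 in scNaCl LPS arrays, and Ndufa12, higher by 0.29 ± 0.14 (adjusted p = 0.998).

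The pseudogenes and similar genes were read with care, because probes to near-identical copies can pick up the parent transcript. In a test over all 13 groups 0 of 84 genes passed the adjustment in limma, where 0.0709% of all clusters did, and 4 of 84 (4.76%) had an unadjusted p under 0.05, against 6.72% of all clusters. The smallest p was that of Ndufs6-ps1, a pseudogene of a complex I subunit, with an adjusted p of 0.496. It measured 8.50, 7.75 and 7.68 in VG NaCl arrays, against 8.48, 8.73, 8.67 and 8.19 in SH NaCl arrays. It measured 8.81, 8.00, 8.16, 7.84 and 8.10 in CEL NaCl arrays and 7.93, 8.22, 8.38 and 8.22 in scNaCl LPS arrays, against 8.88, 8.73 and 8.72 in scNaCl NaCl arrays. Its difference was −0.54 ± 0.19 in VG NaCl against SH NaCl (standard error, adjusted p = 0.471), −0.59 ± 0.18 in CEL NaCl against scNaCl NaCl (adjusted p = 1) and −0.59 ± 0.19 in scNaCl LPS against scNaCl NaCl (adjusted p = 0.999). The level of the 16 pseudogenes and similar genes ranged from −0.33 to 0.27 by array, and their median SD within groups was 0.41. Ndufb4l1, Ndufb4l3, Ndufb4l4 and Atp5mc1l2 were among the 5 members with the largest spread over the 56 arrays, with SDs within groups of 0.68, 0.54, 0.54 and 0.53.

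The subunit genes followed each other only loosely from rat to rat. After the group means were removed, the 2016 pairs of the 64 subunit genes above the median intensity had a median Pearson r of 0.10 over 56 arrays. The pairs shared the array, its dissection and its normalization, and the pairs of other genes above that intensity had a median r of 0.07. Complex I genes had a median of 0.14 among themselves (406 pairs), and complex IV genes −0.03 (55 pairs). The 11 complex IV genes include the isoforms Cox4i2, Cox6a2 and Cox6b2, whose means of 4.86, 5.03 and 4.38 lay not far above the median intensity of 4.08. Their part in the complex IV value was not tested. With mitochondrial ribosomal protein genes the median was 0.13, and with the 6 measured oligodendrocyte markers 0.21. Ndufb6, a membrane-arm subunit of complex I, had the highest mean r with the other subunit genes (0.22), and Cox6b2, an isoform known from testis, the lowest (−0.12). These values describe the 56 arrays and were not tested.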

How the data were processed

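RNA of 56 hypothalamus samples was hybridised to Rat Gene 2.1 ST arrays, 1 array per sample. Per the labels, the authors summarised the scans with RMA in Affymetrix Expression Console. Their methods also name Partek Genomics Suite, quantile normalization and log2 values, but the deposited table holds linear intensity values (1.749 to 7819.8), so that log2 was taken here with no further normalization, pseudocount or filter. The 36685 transcript clusters were named from the platform annotation. It gave 1 symbol to 14824 clusters, several to 829 and none to 21032, and 0 value columns were left unused. The number of arrays limits the precision.

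limma 3.58.1 (R 4.3.3) with empirical Bayes moderation was fitted to all clusters, with Benjamini-Hochberg adjustment over the 36685 clusters and a threshold of 0.05. The VG, SH and CNT arrays (21) and the arrays with s.c. injections (35) were fitted apart, each with its groups as terms, and the pooled LPS fit used 51 arrays with 6 pretreatments as additive terms. Errors after ± are standard errors for differences and SDs for means. The scripts were tested on simulated data, in which 200 of the 36685 clusters were given a known difference. The 200 were drawn from all clusters, and the noise was independent between clusters. The subunit genes had a median SD within groups of 0.195, against 0.291 for all genes of 1 symbol. The counts that follow are therefore not recovery rates of the subunit genes. A true log2 difference of 0.5 was called for 150 of the 200 in the pooled LPS fit. In VG NaCl against SH NaCl it was called for 0 of 200, and in INDOM LPS against INDOM NaCl for 1 of 200. At a difference of 1 the counts were 197, 87 and 104. In the small comparisons a count of 0 called therefore does not show that differences of 0.5 are absent. Levels, motifs and figures were made in Python 3.11.15 (pandas 2.3.3, numpy 2.4.6, matplotlib 3.10.9).

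The members and gene lists were chosen with earlier results of these data known. Genes were named by role, as the 2 smallest p-values of a comparison, or as the 5 largest SDs. Genes past an unadjusted p of 0.05 or without overlap between groups were named after their values were seen. Alternatives were another variance model, other arrays in the fit, an intensity filter, quantile normalization once more, the array set as a block, array weights, the mean of a gene's clusters, and leaving out arrays. The test over 13 groups and the array set term were added after the data were seen.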

Additional observations from a re-analysis of the deposited data

Results flagged for a closer look

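A gap between the outermost array of a group and its nearest neighbour past the Dixon critical value was found in 16 of 310 tests, made on 30 named genes and on the level of the 68 subunit genes in the groups of 4 or 5 arrays, where chance gives about 5%. In complexes IV and V there were 7 such values. Atp5mk was high in CEL LPS array 22 (10.574, the nearest array at 10.276) and in VG LPS array 11 (10.631, nearest 10.38). Atp5pf was high in SH NaCl array 43 (8.775, nearest 8.603). Cox8a (8.199, nearest 8.832) and Cox5b (8.753, nearest 9.179) were both low in CEL NaCl array 29. Cox7c was high in CNT array 41 (9.539, nearest 8.861). Cox8b was high in VG LPS array 46 (5.173, nearest 3.46), the array whose hypothalamus markers lay at −1.91.

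In complexes I and III, SH LPS array 6 was high for Ndufb4 (9.258, nearest 9.019) and low for Ndufs7 (7.479, nearest 8.021). SH LPS array 42 was low for Ndufa12 (8.565, nearest 8.797) and Uqcrq (8.215, nearest 8.394). Ndufa4 was high in SC560 LPS array 35 (10.824, nearest 10.443), Ndufv2 was high in scNaCl LPS array 47 (9.513, nearest 9.304), and Uqcrfs1 was low in scNaCl LPS array 16 (6.892, nearest 7.289). Ndufa4l2 was low in INDOM NaCl array 54 (3.56, nearest 4.363), and the pseudogene Ndufs6-ps1 was high in INDOM NaCl array 53 (8.884, nearest 8.386). Arrays 29, 6 and 42 each stood apart for 2 genes.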

How the results depend on the processing

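No member was called in any of 464 pairs of a comparison and an alternative setting (smallest adjusted p 0.301). The members' median difference moved by less than the SD between arrays of a group (0.057) in 210 of 215 pairs with another setting. It did so in 244 of 249 pairs that left out 1 array. Many of these medians are themselves smaller in size than 0.057, so that a change of sign could count as a small move. For SH LPS against SH NaCl the members' median was 0.023 and reached −0.029 under another setting. These counts therefore do not show that a direction held. With the array set as a block the members' median was −0.120 for VG NaCl against SH NaCl (−0.026 without the block) and −0.006 for the difference of LPS effects between VG and SH (−0.090). Without arrays 13, 20, 35 and 52, whose titles carry an added 2 that the labels do not explain, it was 0.010 for VG LPS against VG NaCl (−0.054), −0.033 for that difference, and 0.012 for the difference between CEL and scNaCl (0.079). Leaving out 1 array gave −0.085 to 0.010 for VG LPS against VG NaCl, −0.147 to −0.033 for the difference between VG and SH, 0.012 to 0.104 for that between CEL and scNaCl, and 0.117 to 0.221 for that between INDOM and scNaCl (0.149). The causes were not tested. No paired analysis was possible because each array number occurs once and no number is shared between groups. Quantile normalization once more gave a median over the subunit genes of 0.002 for VG NaCl against SH NaCl (−0.031) and −0.032 for INDOM NaCl against scNaCl NaCl (−0.107). Precision was limited by group size: single-gene intervals lay within 1.5-fold for 68 of 68 subunit genes in the pooled fit, for 47 in VG NaCl against SH NaCl and for 22 in the difference of LPS effects between INDOM and scNaCl.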
